A study of Mus musculus with 60 samples.

Results

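Gene expression was compared between fetal brains of mice carrying the human PON1 transgene of the Q192 form (tgHuPON1Q192, Q-tg) whose mothers had received chlorpyrifos oxon (CPO) at 0.75 mg/kg/d and those whose mothers had received none. The comparison holds 10 of the 60 arrays of the series, 5 per dose, and the groups are not those of the deposited labels. They follow an inferred order: the samples were numbered by group label and replicate, the numbers were sorted as text, and the label of each sorted number was given to the value column in that place. The order is inferred and is not stated by the submitters. Groups formed in this way are called reassigned below.

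The series used Affymetrix Mouse Gene 1.0 ST arrays, with 12 groups of 5 arrays. All mice had the strain background B6.129, and the genotypes were wild type (WT), PON1-knockout (KO), Q-tg and tgHuPON1R192 (R-tg). CPO was given to pregnant mice for 12 days, on gestational days 6 to 17, and fetal brains were taken on day 18. RNA of all fetuses of 1 dam was pooled onto 1 array, so the dam is the replicate, and dams whose brain acetylcholinesterase lay more than 1.5 SD from their group mean had been left out before 5 per group were drawn at random. The promoter of the transgene, and whether the mouse Pon1 gene is intact in Q-tg mice, are not given in the sources used here. The sex of the fetuses in each pool is not given either.

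Chlorpyrifos oxon is the active form of an organophosphate insecticide and inhibits acetylcholinesterase and other serine hydrolases by binding their active site. Paraoxonase 1 (PON1), made mainly in the liver and carried in the blood, hydrolyses the oxon, and the human Q192 and R192 forms differ at a single amino acid and in how efficiently they do so. Fetal exposure therefore depends on the mother's enzyme as well as on that of the fetus. The comparison addresses whether repeated CPO in pregnancy alters fetal brain expression where the Q192 form is present.

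The order was chosen by the level of mouse Pon1, so that level is given as a description with no test. Over the 60 arrays its log2 signal was at most 5.67 in 15 arrays and at least 9.72 in 45, with none between, so the level of 7 used as the cut parted them clearly. Under the reassigned labels all 15 KO arrays were low and all 45 others were high. Under the deposited labels 10 of 15 KO arrays were low, and 5 of the 45 others were low too, 2 of them labelled Q-tg. The check bears on KO alone and says nothing of the order among Q-tg, R-tg and WT or of the doses.

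**Figure D1:**
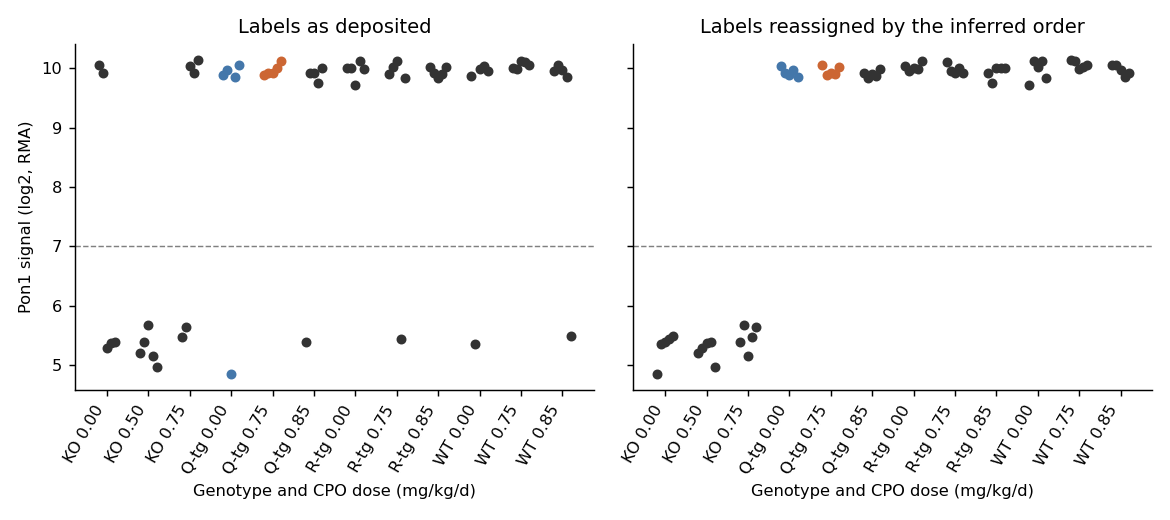
Log2 signal of Pon1 (vertical axis) on the 60 arrays, 1 point per array, by genotype and CPO dose in mg/kg/d (horizontal axis), with the deposited labels on the left and the reassigned ones on the right. Blue and orange mark Q-tg at 0 and 0.75, and the dashed line is the level of 7. On the right the 15 low arrays all lie in KO, while on the left 5 low arrays lie in other groups.

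Of the 60 arrays, 13 kept their deposited group under the reassigned order. Among the 10 arrays compared here 5 did, 3 of 5 at dose 0 and 2 of 5 at 0.75. At dose 0, replicates 1 and 2 carry the deposited label KO 0.75, and replicates 3, 4 and 5 carry Q-tg 0. At 0.75, replicate 1 carries the deposited label Q-tg 0, replicates 2 and 3 carry Q-tg 0.75, replicate 4 carries R-tg 0.75 and replicate 5 carries R-tg 0.85. The dose 0 arrays lie in columns 7 to 10 and 12 of the value table and the 0.75 arrays in columns 13 to 17, so any drift along the columns and the dose cannot be told apart. Averaged over 3 dose groups (15 arrays per genotype), reassigned Q-tg under the inferred order differed from R-tg in 1335 of 21789 transcript clusters (limma, adjusted p under 0.05) and from WT in 100. Under the deposited labels limma called 0 in both. At an unadjusted limma p under 0.05 the inferred order gave 5437 clusters against R-tg and 2376 against WT. The deposited labels gave 380 and 1345, where chance gives 1089 of 21789. Reassigned Q-tg, R-tg and WT lie in successive columns (7 to 23, 24 to 39 and 40 to 56, with KO arrays among them), so drift along the columns and these genotype differences cannot be told apart either. Dose has no gene that checks it.

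Pairwise correlations of the 10 arrays over the tested transcript clusters (probe groups, mostly 1 for each gene) had a median of 0.997 within each dose and between doses, and the lowest was 0.996. The median over all pairs of the 60 arrays was 0.996, so this measure hardly parts the arrays, and single genes such as Gh differed widely among the 10. The lower quartile of the signal was 6.14 ± 0.04 (SD, n = 5) at dose 0 and 6.10 ± 0.05 at 0.75 (exact permutation test, 2-sided, p = 0.190, adjusted p = 0.310 over 3 array measures; the smallest p that 5 against 5 allows is 0.00794). The upper quartile was 8.89 ± 0.02 at dose 0 and 8.90 ± 0.02 at 0.75 (exact permutation test, p = 0.270, adjusted p = 0.310). All 15 measured genes of cortical projection neurons were above the dim level of 6.54, the 95th percentile of 1035 olfactory receptor clusters.

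Paraoxonases and cholinesterases are the genes closest to the exposure. Pon1 stood at 10.03, 9.91, 9.88, 9.97 and 9.85 at dose 0 and at 10.05, 9.89, 9.91, 9.91 and 10.02 at 0.75, and is given as levels alone because it served to choose the order. Pon2, an intracellular paraoxonase, had a log2 difference (0.75 minus 0) of 0.09 (SE 0.07) and Pon3, carried on blood lipoproteins, of 0.10 (SE 0.07), and the intervals of both include 0. Ache, which encodes acetylcholinesterase, the enzyme that ends cholinergic transmission, stood at 8.81, 8.91, 8.74, 8.73 and 8.89 at dose 0 and at 8.92, 8.84, 8.86, 8.65 and 8.85 at 0.75. The highest and the lowest of these 10 values were both at 0.75. The Ache difference was 0.0055 (SE 0.06, 95% interval from -0.12 to 0.13). Bche, the gene of butyrylcholinesterase, which takes up organophosphates in the blood, differed by -0.016 (SE 0.08, 95% interval from -0.17 to 0.14). Bche (6.59 to 6.77 on the 10 arrays) and Pon3 (6.55 to 6.88) lay near the dim level given above. Their intervals bound the array signal and are not read as bounds on mRNA. The intervals of Ache and Pon2 bound the mRNA level in pooled brain. None of these intervals says anything of enzyme activity, which was not analysed here.

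No gene passed the test in the comparison as a whole. limma called 0 of 21789 transcript clusters at an adjusted p under 0.05 (0%), and the smallest adjusted p was 0.9999. At an unadjusted p under 0.05 there were 590 (2.71%), 297 higher at 0.75 (1.36%) and 293 lower (1.34%), where chance gives 1089. The median log2 difference over all clusters was -0.0029, with quartiles of -0.05 and 0.04, and 48.0% of clusters were above 0. An absolute difference of at least 0.25 was seen in 76 clusters and one of at least 0.5 in 1, the growth hormone gene Gh.

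The median SE was 0.06 log2 units, and the 95% interval lay within 0.5 log2 units of 0 for 21689 clusters (99.5%) and within 0.25 for 17146 (78.7%). Of the 15611 clusters above the dim level, 15583 were bounded within 0.5. These are intervals for single clusters, with no adjustment for their number. The 100 clusters not bounded within 0.5 include Gh and the sex-linked genes described below, which differed widely between pools of the same dose.

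**Figure D2:**
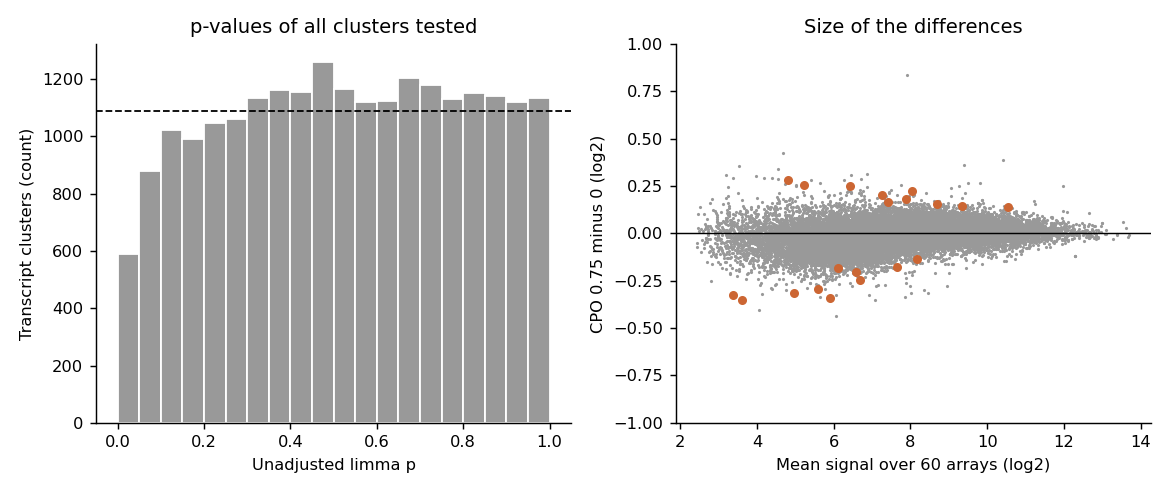
Left, number of transcript clusters (vertical axis) in 20 bins of the unadjusted limma p (horizontal axis), with a dashed line at the 1089 per bin that chance gives; the first bin holds 590. Right, log2 difference between CPO 0.75 and 0 in reassigned Q-tg (vertical axis) against the mean log2 signal over 60 arrays (horizontal axis), 1 point per cluster, with the 20 genes of smallest p in orange; only Gh lies beyond 0.5.

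The 10 genes of smallest p with higher values at 0.75 are given as values, since none passed. Syngr3, which encodes a membrane protein of synaptic vesicles, stood at 10.46, 10.42, 10.56, 10.48 and 10.46 at dose 0 and at 10.64, 10.64, 10.61, 10.62 and 10.58 at 0.75. Every array at 0.75 lay above every array at dose 0, 0.14 log2 units higher on average (SE 0.04; adjusted p = 0.9999 in limma). Ctso, which encodes the lysosomal protease cathepsin O, stood at 8.06, 7.96, 7.83, 7.88 and 7.81 and then at 8.25, 8.08, 8.15, 8.09 and 8.10, a difference of 0.23 (SE 0.07). These groups did not overlap either, though the highest array at dose 0 and the lowest at 0.75 were 8.06 and 8.08. Ankrd45, an ankyrin repeat gene, lay between 8.56 and 8.69 at dose 0 and between 8.72 and 8.81 at 0.75, a difference of 0.15 (SE 0.05). Cdo1, whose product cysteine dioxygenase starts the route from cysteine to taurine, had 9.30 ± 0.06 and 9.45 ± 0.07 (SD, n = 5), and Ninj1, which encodes a membrane protein of cell adhesion and of membrane rupture in dying cells, had 7.80 ± 0.08 and 7.97 ± 0.05. Zbtb8b, a zinc finger gene, differed by 0.17 (SE 0.05) and Pcdhb3, of the protocadherin beta cluster of neuronal adhesion genes, by 0.20 (SE 0.06). The other 3 were dim: Akr1c18 (0.26), which encodes a progesterone-inactivating enzyme, Meig1 (0.25), known from sperm formation, and the vomeronasal receptor gene Vmn2r110 (0.28).

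Among the 10 genes of smallest p with lower values, Creb5 had the smallest p of all. It encodes a transcription factor of the family that binds cyclic AMP response elements. Its levels were 7.72, 7.77, 7.69, 7.69 and 7.64 at dose 0 and 7.59, 7.52, 7.51, 7.58 and 7.42 at 0.75. Every array at 0.75 lay below every array at dose 0, and the difference was -0.18 log2 units (SE 0.04; adjusted p = 0.9999 in limma). Mical3, whose product is an actin-regulating enzyme, had 8.19 ± 0.06 and 8.05 ± 0.05 (SD, n = 5). Elp4, a subunit gene of the Elongator complex, which modifies transfer RNA, was represented by a pair of transcript clusters that went opposite ways, -0.25 (SE 0.07) in a cluster at about 6.7 and 0.10 (SE 0.05) in a brighter one at about 9.2. Pram1, an adaptor gene of blood cells, differed by -0.20 (SE 0.06). The other 6 were dim: Fpr-rs6 (-0.35) of the formyl peptide receptor family, the B cell adaptor gene Blnk (-0.18), the peptide hormone gene Uts2b (-0.29), the Y-linked gene Zfy2 (-0.32), the bitter taste receptor gene Tas2r115 (-0.32) and the pseudogene Gsdmcl-ps (-0.34). Blnk lay between 6.12 and 6.29 at dose 0 and between 5.94 and 6.10 at 0.75. Zfy2 was highest (3.67) on replicate 4 at dose 0, an array where the Y-linked gene Eif2s3y was low. On replicate 3 at 0.75, the other array low for Eif2s3y, Zfy2 was at 3.12. The difference in Zfy2 is therefore not read as one of Y-linked expression.

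In all, 9 of these 20 genes were dim and 10 had groups that did not overlap, 5 in each direction. In each of the 20 genes no array crossed the mean of the opposite dose, a pattern that choosing by smallest p favours. Over all clusters the groups did not overlap in 201 (0.922%), 90 of them higher (0.413%) and 111 lower (0.509%). Pcdhb3, Vmn2r110, Fpr-rs6, Tas2r115, Akr1c18, Zfy2 and Gsdmcl-ps belong to families of similar sequence, so their signals may not be of 1 gene alone.

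**Figure D3:**
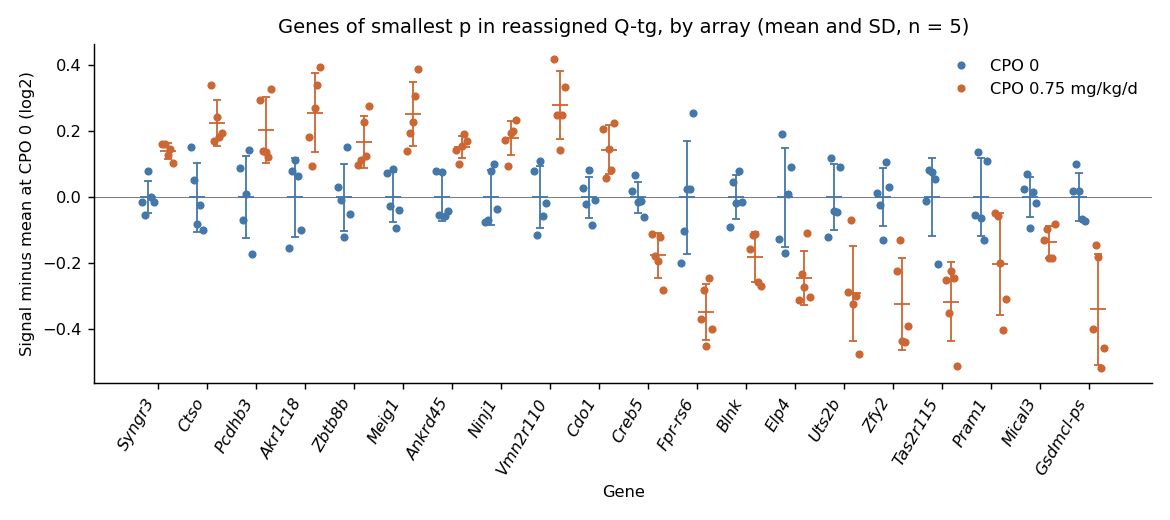
Log2 signal of each array minus the gene's mean at CPO 0 (vertical axis) for the 20 genes of smallest p, 10 higher and 10 lower (horizontal axis), at CPO 0 (blue) and 0.75 mg/kg/d (orange) in reassigned Q-tg. Points are arrays, and bars are the mean and SD of 5; in 10 genes, Syngr3, Ctso and Creb5 among them, the colours do not overlap.

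The same 20 genes were read in the other reassigned genotypes at 0.75 against 0, which use other arrays. The difference had the same sign in WT for 17 of the 20, in KO for 12 and in R-tg for 11, and for 6 in all 3. The share with the same sign over all clusters is not given, so these counts have no background. In WT and R-tg, as in Q-tg, the 0.75 arrays lie in later columns than the dose 0 arrays. Drift along the columns and dose cannot be told apart there either. The choice by smallest p in Q-tg favours larger values there. Creb5, at -0.18 in Q-tg, was at -0.03 in WT, -0.01 in KO and 0.01 in R-tg (SE 0.04 each). Syngr3, at 0.14 in Q-tg, was at 0.04 in WT, 0.04 in KO and 0.01 in R-tg. Ctso, at 0.23 in Q-tg, was at 0.10, 0.05 and 0.08 in that order (SE 0.07 each). At 0.85 mg/kg/d in reassigned Q-tg the same dose 0 arrays were used, which favours the same sign. There Creb5 was at -0.06, Syngr3 at 0.07, Ctso at 0.09, Cdo1 at -0.02 and Zbtb8b at 0.18. Elp4 was at -0.01, Uts2b at 0.0045, Meig1 at -0.04, Tas2r115 at -0.02 and Fpr-rs6 at -0.40. Akr1c18 was at 0.24, Ninj1 and Vmn2r110 at 0.11, and Pcdhb3 and Ankrd45 at 0.05. Zfy2 was at -0.24, Blnk at -0.10, Mical3 at -0.09, Pram1 at -0.04 and Gsdmcl-ps at -0.03. These are all 20 genes. Cdo1, Uts2b and Meig1 had the opposite sign to that at 0.75, and the others kept it.

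Of 16 immediate early genes, which neurons switch on quickly after activity or growth signals, 4 were above 0 and 12 below. None passed, the median was -0.044 against -0.003 over all 19938 genes tested, and Fos, Fosb and Jun had an unadjusted p under 0.05 (2.71% of all clusters did). Fos, which encodes a subunit of the AP-1 transcription factor, stood at 6.56, 6.87, 6.77, 6.74 and 6.73 at dose 0 and at 6.65, 6.64, 6.55, 6.27 and 6.29 at 0.75, a log2 difference of -0.25 (SE 0.10). The groups overlapped through replicate 1 at dose 0, and replicates 4 and 5 at 0.75 were the lowest. Fosb, its close relative, stood at 6.82, 7.08, 6.97, 6.96 and 6.98 and then at 6.74, 6.81, 6.70, 6.64 and 6.75, a difference of -0.23 (SE 0.08). Here the groups did not overlap, although 6.82 at dose 0 and 6.81 at 0.75 are close. Egr2, a zinc finger factor of the same early response that also marks the hindbrain, differed by -0.15 (SE 0.08), while Jun, the partner of Fos in AP-1, differed the other way by 0.14 (SE 0.06), most in replicate 1 at 0.75 (9.02 against 8.65 to 8.78 in the other 4). Fos and Fosb lay near the dim level of 6.54. In the other genotypes Fos was at -0.02 in WT, -0.07 in KO and 0.14 in R-tg, and Fosb was at -0.08, 0.07 and 0.13.

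The promoters of Fos and Fosb are shown because these genes had the largest differences of the list, both below 0. They run from 250 bases before to 50 after the gene's start, from RefSeq on GRCm38.p6, Fos at chr12:85473640-85473939 on the plus strand and Fosb at chr7:19309996-19310295 on the minus strand, each 5′ to 3′. Capitals mark TATAAA (the TATA box) and TGACG (the core of the cyclic AMP response element), searched on both strands.
Fos: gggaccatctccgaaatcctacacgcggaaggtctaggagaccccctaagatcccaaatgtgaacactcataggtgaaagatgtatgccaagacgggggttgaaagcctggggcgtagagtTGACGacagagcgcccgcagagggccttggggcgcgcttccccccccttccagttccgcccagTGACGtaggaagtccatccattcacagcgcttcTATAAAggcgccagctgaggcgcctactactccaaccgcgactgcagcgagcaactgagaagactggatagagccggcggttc
Fosb: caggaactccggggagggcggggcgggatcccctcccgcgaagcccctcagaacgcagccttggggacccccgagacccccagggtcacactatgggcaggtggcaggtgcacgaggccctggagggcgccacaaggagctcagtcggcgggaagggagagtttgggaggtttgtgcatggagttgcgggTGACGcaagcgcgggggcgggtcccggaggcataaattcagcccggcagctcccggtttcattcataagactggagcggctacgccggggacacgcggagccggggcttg
The Fos window holds 1 TATAAA, which begins 33 bases before the start, and 2 copies of TGACG. The Fosb window holds 1 copy of TGACG and no TATAAA. The full element TGACGTCA, which contains TGACG, is in neither. Of 32851 promoters of this length, 13.6% hold TATAAA, 20.8% hold TGACG and 1.79% hold TGACGTCA. These matches are a description alone.

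Genes of cholinergic signalling, on which an acetylcholinesterase inhibitor acts first, showed no shared direction. All 17 were measured, 7 were above 0 and 10 below, the median was -0.0089, and none had an unadjusted p under 0.05. The muscarinic receptor gene Chrm4 had the largest difference, with 7.23, 7.44, 7.31, 7.44 and 7.38 at dose 0 and 7.13, 7.41, 7.32, 7.24 and 7.03 at 0.75. Its lowest arrays were replicates 5 and 1 at 0.75, but the groups overlapped and the difference was -0.13 (SE 0.07). Colq, which anchors acetylcholinesterase at the muscle synapse, was at -0.08, and the nicotinic receptor subunit genes Chrna5 and Chrnb4 were at 0.06 and -0.05.

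Brain serine hydrolases that organophosphates bind were above 0 in 15 of 18 cases, with a median of 0.024. Lypla2, which encodes a thioesterase that removes palmitate from proteins, was the 1 member with an unadjusted p under 0.05 (2.71% of all clusters), at 0.10 (SE 0.05), from 9.52 to 9.69 at dose 0 and from 9.61 to 9.78 at 0.75. Abhd12, a lysophospholipase gene, was at 0.07, the peptidase gene Prep at 0.06 and Apeh at 0.05.

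Of 22 genes of xenobiotic metabolism 19 were measured, 11 above 0 and 8 below, with a median of 0.017, and 8 of the 19 were dim. The glutathione transferase genes Gstm1 and Gstt1, whose products join glutathione to reactive compounds, were the 2 with an unadjusted p under 0.05 (2.71% of all clusters). Gstm1 stood at 9.10, 9.28, 9.08, 9.20 and 9.29 at dose 0 and at 9.47, 9.42, 9.29, 9.23 and 9.27 at 0.75, a difference of 0.15 (SE 0.05). Replicates 1 and 2 at 0.75 were the highest, replicate 3 was level with the top of dose 0, and the other 2 lay within its range. Gstt1 stood at 7.90, 7.83, 8.00, 7.73 and 7.81 and then at 7.97, 7.94, 8.09, 8.03 and 7.97, a difference of 0.15 (SE 0.06), with an overlap through replicate 3 at dose 0. Cyp1a2 and Cyp1a1, target genes of the aryl hydrocarbon receptor, were dim, at -0.19 (SE 0.10) and -0.09.

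Lists of stress responses had small positive medians, and no member passed. Oxidative stress genes were above 0 in 14 of 17 cases, with a median of 0.034. Nqo1 was at 0.07, Gclm, which makes glutathione, at 0.07, Txnrd1 at 0.06 and the heme oxygenase gene Hmox1 at -0.06. Genes of the integrated stress and unfolded protein response were above 0 in 16 of 20 cases, with a median of 0.028, led by the serine and glycine synthesis genes Shmt2 (0.11) and Psat1 (0.10). Chac1, a stress-induced gene that breaks down glutathione, and Atf4, the transcription factor at the centre of this response, were both at 0.09. Cytosolic heat shock genes were above 0 in 11 of 14 cases, with a median of 0.039, and the chaperone gene Hspa4l was at 0.10 (SE 0.04). Hsph1 was at 0.08, Hspa1a at 0.07 and the co-chaperone gene Bag3 at -0.10. Hspa8, named after its values were seen, had groups that did not overlap at a difference of 0.04 (12.80 to 12.83 against 12.84 to 12.89).

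Hypoxia response genes had a median of 0.063, with 10 of 16 above 0, among them Higd1a at 0.12, the glycolysis gene Pgk1 at 0.11, the glucose transporter gene Slc2a1 at 0.11 and Egln3, whose product marks HIF for breakdown, at 0.09. Interferon response genes had a median of 0.061 with 7 of 12 above 0. Usp18 was at 0.15 (SE 0.09), Ifitm3 and Ifit1 at 0.14 and Gbp3 at 0.13. Respiratory chain genes were above 0 in 26 of 32 cases with a median of 0.019, led by the complex I gene Ndufa1 at 0.20 (SE 0.09), then Ndufa4 at 0.12, Uqcrfs1 at 0.09 and Sdhd at 0.08. Over all genes tested 47.9% were above 0. Genes of a list are measured on the same arrays, so these counts are not independent. Of all 19938 genes 5754 were dim. The lists of stress responses, hypoxia and the respiratory chain held at most 1 dim gene each. The part of brightness in these counts was not tested.

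Lists of neuronal wiring had small negative medians. Axon guidance genes were above 0 in 9 of 33 cases and below in 24, with a median of -0.023. Plxna2, a receptor for semaphorins, stood at 10.85, 10.82, 10.84, 10.88 and 10.87 at dose 0 and at 10.73, 10.78, 10.71, 10.76 and 10.81 at 0.75. Every array at 0.75 lay below every array at dose 0, by -0.09 log2 units (SE 0.04). The related receptor gene Plxna4 differed by -0.11 (SE 0.04) with overlapping groups, the repellent gene Slit3 by -0.09 and the netrin receptor gene Unc5b by 0.08. In the other genotypes Plxna2 was at -0.06 in WT, 0.01 in KO and -0.08 in R-tg. Synapse genes had a median of -0.0072 with 9 of 25 above 0. The scaffold genes Shank2 and Shank1 were at -0.12 and -0.09, the presynaptic gene Bsn at -0.08 and Homer1 at 0.07.

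**Figure D4:**
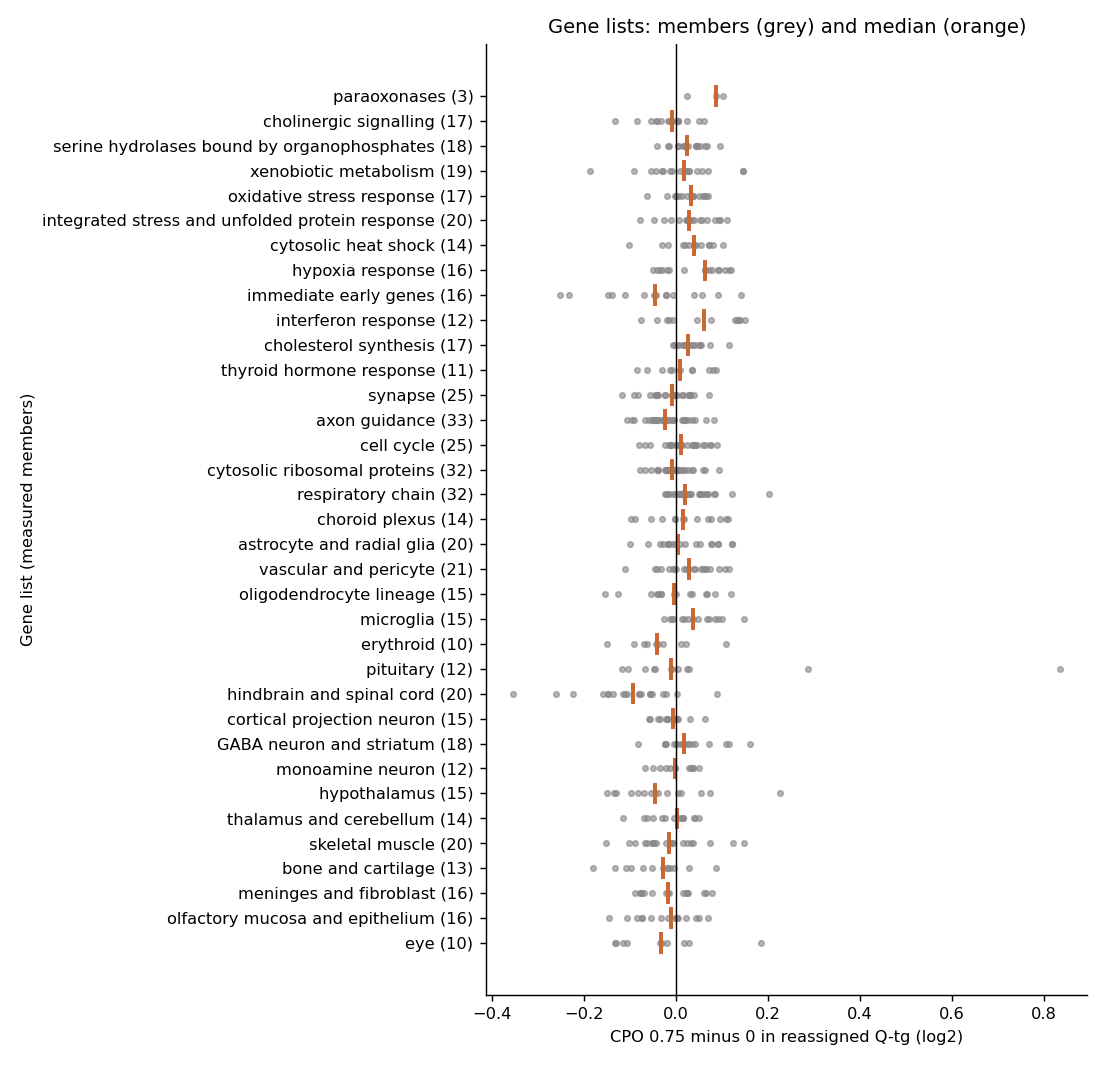
Log2 difference between CPO 0.75 and 0 in reassigned Q-tg (horizontal axis) for the measured members of each gene list (grey points) and their median (orange bar), with the number of measured members in brackets; the sex-linked list is left out. Medians lie between -0.093 (hindbrain and spinal cord) and 0.086 (paraoxonases), and the single point beyond 0.5 is Gh. The paraoxonase list includes Pon1, which served to choose the order.

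Over 36 lists with 607 measured entries (599 different genes), 19 entries had an unadjusted p under 0.05 (2.71% of all clusters did) and 6 had groups that did not overlap (0.922%). The former include Psat1, Hspa4l, Pgk1, Ndufa1, Plxna2, Plxna4, Slco1c1, Cdh5, Olig1 and C1qb. The list medians lay between -0.093 and 0.086, apart from the sex-linked genes.

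Cell type markers were read as a measure of what each pool held. In bulk samples fewer cells of a type and less RNA per cell cannot be told apart. Choroid plexus genes, from the tissue that secretes cerebrospinal fluid, were above 0 in 8 of 14 cases with a median of 0.016. Ttr, its most abundant transcript, stood at 12.64, 12.69, 12.51, 12.59 and 12.57 at dose 0 and at 12.71, 12.77, 12.74, 12.65 and 12.68 at 0.75, a difference of 0.11 (SE 0.06). The groups overlapped through replicate 2 at dose 0. Clic6 was at 0.11, Otx2 at 0.10 and Calml4 at -0.10. Astrocyte and radial glia genes were split 10 to 10 with a median of 0.0046: the water channel gene Aqp4 and Agt were at 0.12, Gfap at 0.09 and Gjb6 at -0.10.

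Vascular and pericyte genes were above 0 in 13 of 21 cases with a median of 0.028, and their members went both ways. Slco1c1, a thyroid hormone transporter gene of the blood-brain barrier, was at 0.12 (SE 0.04), Slc2a1 at 0.11 and Acta2 at 0.09, while Cdh5, the endothelial cadherin gene, was at -0.11 (SE 0.05). In the oligodendrocyte lineage, above 0 in 7 of 15 cases, the lineage factor gene Olig1 lay between 8.96 and 9.01 at dose 0 and between 9.02 and 9.24 at 0.75, with no overlap and a difference of 0.12 (SE 0.06). The myelin genes Mobp and Mog were at -0.15 and -0.12 and Cnp at 0.08. Microglia genes were above 0 in 11 of 15 cases with a median of 0.038, led by the complement genes C1qb (0.15, SE 0.07) and C1qc (0.10), then Tyrobp and Aif1 at 0.09. Erythroid genes, which follow residual blood, were above 0 in 3 of 10 cases with a median of -0.041. They were led by Alas2 at -0.15, Tfrc at 0.11, Rhag at -0.09 and Hba-x at -0.07. Since 6 of these 10 genes were dim, the list is a weak gauge of residual blood.

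Some pituitary and hindbrain genes varied widely between pools of the same dose. Gh stood at 6.71, 6.97, 8.84, 6.94 and 6.83 at dose 0 and at 9.69, 6.90, 10.26, 6.82 and 6.79 at 0.75. Replicate 3 at dose 0 and replicates 1 and 3 at 0.75 were high and the other 7 arrays were low, so its difference of 0.83 has an SE of 0.89 and a 95% interval from -0.95 to 2.61. Cga, the shared subunit of pituitary glycoprotein hormones, was high on the same 3 arrays and differed by 0.29 (SE 0.20), while the pituitary factor genes Pitx1 and Lhx3 were at -0.12 and -0.10. Of 15 pituitary genes 12 were measured, 5 of them dim, and their summed level ran from 10.05 to 10.64 at dose 0 and from 9.97 to 11.28 at 0.75.

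Genes of the hindbrain and spinal cord were below 0 in 18 of 20 cases with a median of -0.093, and none had an unadjusted p under 0.05. Hoxa5, a patterning gene of this region, stood at 7.13, 7.67, 6.71, 6.43 and 7.24 at dose 0 and at 6.81, 7.12, 6.85, 5.96 and 6.68 at 0.75, a difference of -0.35 (SE 0.34). The groups overlapped, with replicate 2 the highest of each group and replicate 4 the lowest. Slc6a5, the glycine transporter gene of inhibitory neurons there, was at -0.26 (SE 0.26), Hoxb5 at -0.22 and Hoxb4 at -0.16, and 10 of the 20 were dim. The summed level of the list ran from 10.90 to 11.30 at dose 0 and from 10.75 to 11.16 at 0.75. The part of these markers in the values of other genes was not tested. Under the deposited labels the median of this list was 0.17, of the opposite sign.

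Sex-linked genes showed the make-up of the pools. Eif2s3y, a Y-linked gene, was at 4.18 on replicate 4 at dose 0 and at 4.49 on replicate 3 at 0.75, and at 7.33 or more on the other 8 arrays. Xist, transcribed from the inactive X, was at 10.42 or more on all 10. A sex ratio of the pool, taken from the arrays because the labels give no sex, served as a covariate in limma. With it 572 clusters had an unadjusted p under 0.05 and none passed.

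**Figure D5:**
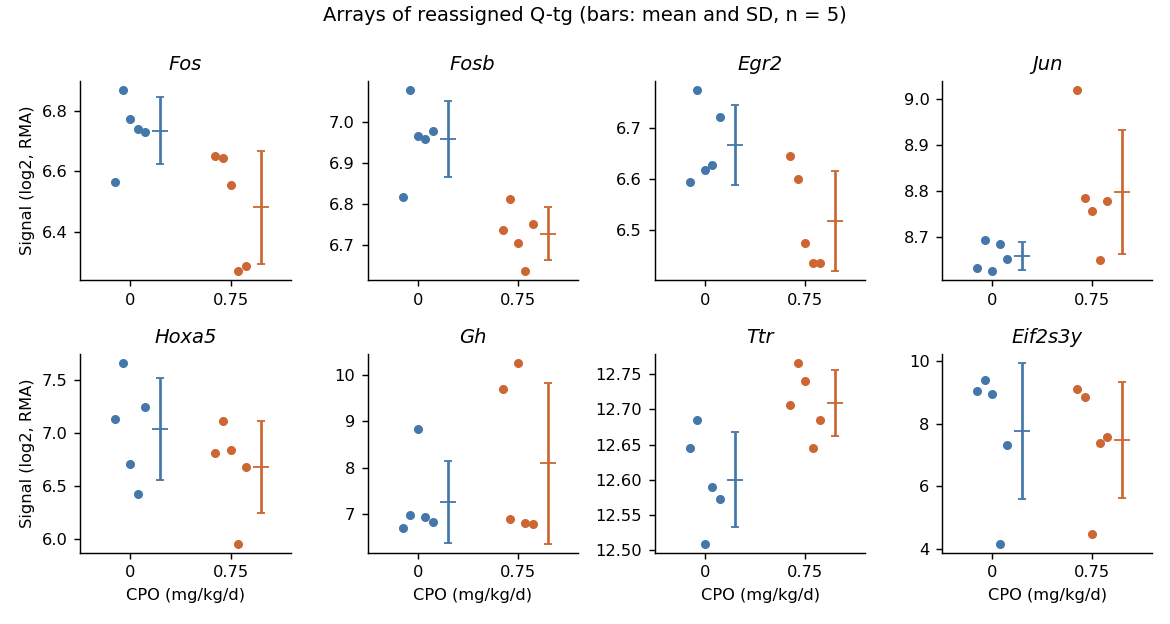
Log2 signal (vertical axes, each with its own range) of 8 genes on the arrays of reassigned Q-tg at CPO 0 (blue) and 0.75 mg/kg/d (orange, horizontal axes); points are arrays and bars are the mean and SD of 5. Fosb is the 1 gene shown whose groups do not overlap, Gh splits into high and low arrays at both doses, and Eif2s3y is low on 1 array per dose.

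The higher dose was set against 0.75 within reassigned Q-tg. limma called 0 clusters (0%), with a smallest adjusted p of 0.745, and 1376 had an unadjusted p under 0.05 (6.32%), 982 higher at 0.85 (4.51%) and 394 lower (1.81%). The genes of smallest p were Celsr1, an adhesion receptor of planar cell polarity, at 8.24 ± 0.06 and 8.43 ± 0.07 (SD, n = 5; 0.85 minus 0.75 of 0.19, SE 0.04), the zinc finger gene Zfp618 at 0.17 and the prohormone-processing gene Cpe at -0.13. Both comparisons share the 0.75 arrays, which favours opposite signs in genes picked at 0.75, so their values are not read against each other.

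The response to 0.75 was also compared between reassigned Q-tg and each other genotype. The test of the difference called 0 clusters against WT (498 at an unadjusted p under 0.05, 2.29%, with 250 higher in Q-tg, 1.15%, and 248 lower, 1.14%). It called 0 against KO (535, 2.46%, with 298 higher, 1.37%, and 237 lower, 1.09%) and 0 against R-tg (607, 2.79%, with 172 higher, 0.789%, and 435 lower, 2%). Against WT the genes of smallest p were Olfr1038-ps (0.41), Akr1c18 (0.41) and Zc3h6 (0.36). Against KO they were the microfibril gene Mfap2 (0.19), Pram1 (-0.30) and Angptl1 (-0.31). Against R-tg they were Blnk (-0.28), Fpr-rs6 (-0.51) and Etv4 (-0.25), a transcription factor gene downstream of growth factors, and the smallest adjusted p was 0.999. For Ache the response differed by -0.09 from WT, -0.08 from KO and -0.13 from R-tg. These values share the Q-tg arrays, and a p that misses the threshold does not show that the genotypes respond alike.

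Under the deposited labels the same comparison used 10 arrays labelled Q-tg 0 or 0.75, of which 6 are in the reassigned comparison and 5 in the same group of it. limma called 0 of 21789 clusters there as well (0%), and 511 had an unadjusted p under 0.05 (2.35%), 344 higher (1.58%) and 167 lower (0.766%). Creb5 was at -0.12, Syngr3 at 0.10 and Ctso at 0.25 by those labels, which share arrays with the values above. Elp4 was at -0.0014 in place of -0.25, Blnk at -0.03 and Vmn2r110 at 0.03. Among the arrays labelled dose 0, 1 was low for Pon1, which served to choose the order.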

How the data were processed

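Per the submitters' processing notes, the authors made the deposited log2 signals with RMA in the oligo package under R 2.15.1, and the deposited session record names oligo 1.22.0. They were used with no further normalization. Of 28858 transcript clusters, the platform annotation gave 1 gene symbol for 21789, several for 1621 and none for 5448, and 21698 of the 21789 were matched by gene number to the GRCm38.p6 gene table. The 12 reassigned groups on 60 arrays were fitted in 1 model with limma 3.58.1 in R 4.3.3. Tests were 2-sided, with Benjamini-Hochberg adjustment over the 21789 and a threshold of 0.05. Differences are log2, with the SE of that model, and 5 contrasts of dose or of the response to dose were tested. The genotype differences over 3 dose groups and the comparison by the deposited labels were fitted with limma besides these. The number of arrays limits the precision.

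The rule for named genes takes the paraoxonases and cholinesterases (Pon1 to Pon3, Ache, Bche), any gene that passes, the 10 of smallest p in each direction where fewer pass, the 3 of smallest p in every other contrast, and the 4 members of largest absolute difference in a described list. Predicted genes and small RNAs were skipped. Any other gene was chosen after its values were seen. The comparison, its members and the lists were chosen with earlier results of these data known. Lists were read through the brightest cluster of each gene. The labels do not say that each dam came from a separate experiment, so p-values measure the spread between these dams. The alternatives were the deposited labels, agreeing arrays only, fewer arrays, another prior, array weights, no dim clusters, all clusters, centring, covariates, the replicate block and leaving out each array. The script was tested on simulated data. Scanner values were not used here, so no other background correction was run.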

Additional observations from a re-analysis of the deposited data

Results flagged for a closer look

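In 208 groups of 5 arrays (104 genes at both doses) 10 held an array far from the other 4. Chance gives about 1 in 20 groups, so this number is close to what chance gives. Ache stood at 8.65 on replicate 4 at CPO 0.75 against 8.84 to 8.92 on the others, and Chac1 at 7.67 on the same array against 7.91 to 7.96. Hsph1 was low on replicate 2 at 0.75 (9.71 against 9.83 to 9.87), where Shank2 was high (8.92 against 8.70 to 8.76). Slit3 was high on replicate 1 at 0.75 (8.01 against 7.78 to 7.84).

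At dose 0, replicate 4 was low for Ifitm3 (8.56 against 8.90 to 9.03) and for the myelin gene Cnp (8.51 against 8.66 to 8.69). Replicate 3 at dose 0 was high for Gh (8.84 against 6.71 to 6.97), for Cga (7.02 against 6.40 to 6.57) and for the choroid plexus gene Calml4 (7.04 against 6.82 to 6.87). The cause of these values was not tested.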

How the results depend on the processing

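limma called 0 transcript clusters in each of the 22 alternatives, and the smallest adjusted p was 0.118, with array weights. The count at an unadjusted p under 0.05, 590, was 235 with the agreeing arrays only, 1370 with the 10 arrays alone, 923 with the 15 Q-tg arrays alone, 2224 with array weights and 924 with the lower quartile as covariate. Leaving out 1 array gave 367 to 1093: 367 without replicate 2 and 904 without replicate 1 at dose 0, and 1093 without replicate 2 at 0.75. Chance gives 1089 of 21789 clusters. The counts of 1370, 2224 and 1093 lay above it, and 590 and the others given here lay below it. The cause was not tested. The replicate numbers did not pair the arrays (correlation of deviations from -0.15 to 0.40, 1 of 5 over 0.1, and 2 of 5 arrays closest to their own number), and with the replicate block the count was 605.

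Of 541 values of named genes 529 kept their direction and side of the threshold, a count partly fixed in advance. No cluster passed in any alternative, and several alternatives change only the SE and leave the difference as it was. Most of these genes were also picked by smallest p on the same arrays. The 12 reversals were of the 3 genes nearest 0. Bche was 0.11 by the deposited labels. Pon1 was -0.0011 with the agreeing arrays and -0.012 with the lower quartile as covariate. Ache was -0.011 with array weights and -0.025 with that covariate. With 1 array left out, Ache ran from -0.019 to 0.050, below 0 in 5 cases, and Bche from -0.038 to 0.0042, above 0 in 2. Of 420 list medians 10 moved by more than their spread, most of them under the deposited labels. There the median was 0.17 in place of -0.093 for hindbrain and spinal cord genes. It was 0.10 in place of 0.016 for choroid plexus genes and 0.017 in place of 0.063 for hypoxia genes. The 420 also hold settings such as centring, which shifted the medians by only -0.0019.

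The order of the labels is inferred, and dose has no gene that checks it. With 5 pools per dose, the 95% interval of single clusters lay within 0.25 log2 units of 0 for 78.7% of them. Gh and the sex-linked genes had far wider ones, and dim clusters are the least certain.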

Other observations

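Lists not described above had medians near 0 as well. Cholesterol synthesis genes were above 0 in 15 of 17 cases with a median of 0.026 and none at an unadjusted p under 0.05. Cell cycle genes were above 0 in 16 of 25 cases, with a median of 0.012, and cytosolic ribosomal protein genes in 13 of 32, with a median of -0.0072. Genes of GABA neurons and the striatum were above 0 in 13 of 18 cases and those of cortical projection neurons in 5 of 15, with medians of 0.017 and -0.0070. Hypothalamic genes were above 0 in 5 of 15 cases with a median of -0.045. Bone and cartilage genes, 8 of 13 of them dim, were above 0 in 2 of 13 with a median of -0.028. No member of these lists passed.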
